A study of Mus musculus with 6 samples.

Results

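The vascular endothelial growth factor (VEGF) and angiopoietin-Tie families were followed in liver sinusoidal endothelial cells of wild-type mice. The set comprised 10 genes, taken by symbol from the 22298 genes of the deposited count table: the receptors Kdr, Flt1, Tek and Tie1, the co-receptor Nrp1, and the ligands Vegfa, Vegfb, Pgf, Angpt1 and Angpt2. The data are poly(A)-selected RNA sequencing of 6 libraries in 2 groups of 3, aging replicates 2, 3 and 5 and control replicates 1, 2 and 3. The study set mice aged 24 months against mice aged 8 weeks, but its labels conflict: the libraries titled aging carry an age of 8 weeks, and those of the control group carry 24 months. Group names therefore stand for titles only, and each direction is that of the aging libraries relative to the control libraries. No treatment is labelled in either group. Since no label ties a library to an animal, the p-values cover the variation among these 6 libraries, which may be technical.

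Sinusoidal endothelial cells line the capillaries of the liver lobule through an open, fenestrated wall. In adult liver, VEGF-A made largely by hepatocytes acts on the receptor encoded by Kdr, and this signal is known to keep the wall fenestrated. The angiopoietin system sets how quiescent a vessel is: angiopoietin-1, made by perivascular cells, activates the receptor encoded by Tek, while angiopoietin-2, made by endothelial cells themselves, can block or weakly activate it.

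None of the 9 genes of the set with enough counts to be tested changed at an edgeR adjusted p under 0.05, where 12.8% of the 13096 genes tested did. Of the 9, 3 had an unadjusted p under 0.05 (31.3% of all genes tested). DESeq2 called 1, Angpt2 (17.9% of all genes), and limma-voom called 0 (11.1% of all genes). The largest differences were in the angiopoietins. Angpt2 averaged 54.8 ± 33.4 CPM in aging libraries and 26.2 ± 2.55 CPM in control libraries, and Angpt1 averaged 3.67 ± 0.621 and 6.95 ± 3.23 CPM (SD, n = 3 each; CPM, counts scaled to a common library total). The 5 receptor and co-receptor genes had log2 fold changes between -0.20 and -0.13. Over the 9 genes, 7 had a negative log2 fold change and the median was -0.16, beside a median of -0.01 and 50.7% negative over all genes tested.

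Totals were 15999220 to 17871220 counts per library, and mitochondrial transcripts were 2.74% to 3.33% of them. The labelled cell type was met by its markers: none of the 10 sinusoidal and 9 pan-endothelial markers was at 0, and their summed levels were 23168 to 26606 CPM and 7610 to 8337 CPM in aging libraries, against 22558 to 28387 CPM and 7913 to 9015 CPM in control libraries. No gene of these 2 lists passed. Of the sinusoidal markers 3 had a positive and 7 a negative log2 fold change. Lyve1 was uneven, with 244, 67.7 and 462 CPM in aging replicates 2, 3 and 5, against 551, 629 and 662 CPM in control replicates 1, 2 and 3 (log2 fold change -1.25 ± 0.60, SE; edgeR adjusted p = 0.207). Transcripts of other cells were present as well. Of 9 neutrophil markers 8 rose, where 7.22% of all genes tested did, and the count was 0 without control replicate 1 or 2, 2 without control replicate 3 and 5 without aging replicate 3. Their sum was 1782 to 4780 CPM in aging libraries and 249 to 569 CPM in control libraries, and the highest sum was in aging replicate 2. Of the other lists, 2 of 8 B and plasma cell, 1 of 9 T and NK cell and 1 of 7 cholangiocyte markers rose. Of 6 lymphatic endothelial markers 1 fell, Mmrn1, where 5.59% of all genes tested fell. That list shares Lyve1 with the sinusoidal list, so it does not stand for a separate cell type alone. Its Flt4 averaged 1824 CPM in aging and 2066 CPM in control libraries, against 2.53 and 5.04 CPM for Mmrn1. None of 11 Kupffer cell, 5 erythroid or 3 mesothelial markers tested passed. Without control replicate 3 none of these 5 calls was left.

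On the scale that allows genes to be compared, the FPKM of the authors (fragments scaled by transcript length and library size), the receptors stood far above their ligands. Kdr ranked first, with 698 ± 18.7 FPKM in aging libraries and 824 ± 43.5 FPKM in control libraries, and was 38th of all genes in the table by mean FPKM. Nrp1 followed with 330 ± 6.33 and 376 ± 29.3 FPKM, then Tek with 230.0 ± 35.9 and 264 ± 21.9 FPKM (SD, n = 3 each). Tie1, at 172 ± 23.4 FPKM in aging libraries and 197 ± 13.2 FPKM in control libraries, could not be separated from Flt1, at 166 ± 36.8 and 187 ± 21.5 FPKM, since Tie1 was the higher in 4 of 6 libraries only. The ligands Vegfa, Vegfb and Angpt2 formed a second tier whose ranges overlapped between neighbours, with levels of 6.64 to 24.7 FPKM over all libraries. Angpt1 reached at most 2.57 FPKM, and Pgf was listed at 0 in 4 of 6 libraries.

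**Figure D1:**
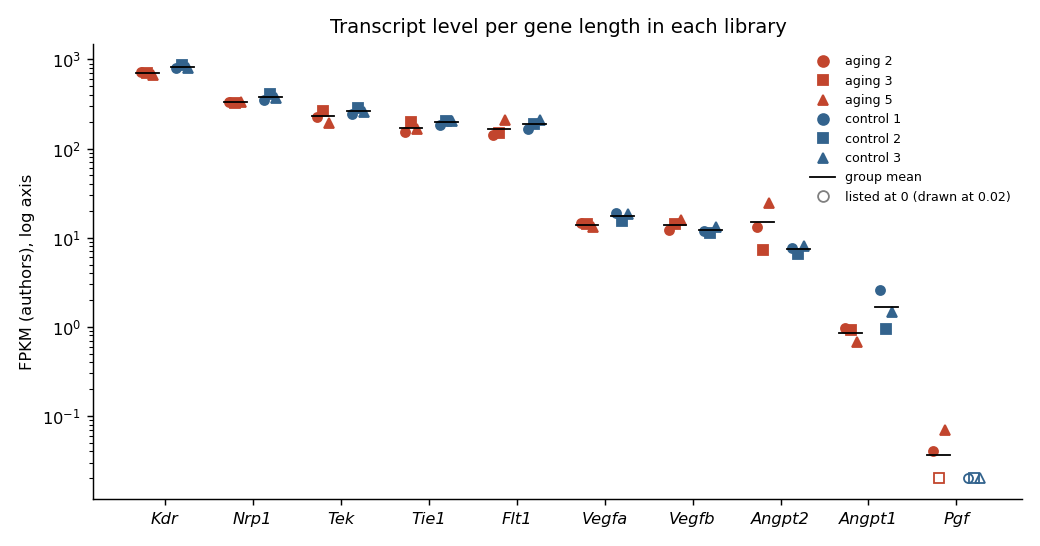
Level of each gene in each library, in FPKM as deposited by the authors, on a log axis; red symbols are aging libraries, blue symbols control libraries, and black bars the group means. The 5 receptor and co-receptor genes sit between 142 and 874 FPKM, Vegfa, Vegfb and Angpt2 between 6.64 and 24.7 FPKM, and open symbols mark libraries in which Pgf is listed at 0.

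Kdr (ENSMUSG00000062960) encodes VEGFR2, the main signalling receptor for VEGF-A in endothelium. It had 4243, 4162 and 4170 CPM in aging replicates 2, 3 and 5, against 4477, 5186 and 4813 CPM in control replicates 1, 2 and 3. The aging libraries lay close together and below every control library. The log2 fold change was -0.20 ± 0.09 (SE; 95% interval -0.42 to 0.01), which did not pass (edgeR adjusted p = 0.179). Groups that do not overlap in either direction were common, at 38.0% of all genes tested, and Kdr and Vegfa were the 2 genes of the set among them. The 9 pan-endothelial markers had a median log2 fold change of -0.11 in the same libraries, and their part in the Kdr value was not tested. In bulk RNA, fewer cells of a type and less RNA per cell cannot be told apart. The genes whose log2 CPM followed Kdr most closely over the 6 libraries, among 8898 genes with a mean of at least 10 CPM, were Fbxl17, Vps41 and Pigk (Pearson r = 0.987, 0.980 and 0.979), and 198 genes reached an r of 0.9.

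Flt1 (ENSMUSG00000029648) encodes VEGFR1, which binds VEGF-A, VEGF-B and placental growth factor and also occurs as a soluble decoy; counts per gene do not separate the 2 forms. It had 960, 1003 and 1449 CPM in aging replicates 2, 3 and 5, against 1059, 1264 and 1403 CPM in control replicates 1, 2 and 3. Aging replicate 5 was the highest of all 6 libraries and aging replicate 2 the lowest, so the groups overlapped fully (log2 fold change -0.13 ± 0.18, SE; edgeR adjusted p = 0.669). With 1 library left out the log2 fold change lay between -0.34 without aging replicate 5 (edgeR adjusted p = 0.114) and -0.02 without aging replicate 2 (edgeR adjusted p = 0.962). With the neutrophil markers as a covariate it was 0.59 ± 0.30 (SE; edgeR adjusted p = 0.415). Nrp1 (ENSMUSG00000025810), the co-receptor for VEGF-A and class 3 semaphorins, had 1193, 1161 and 1255 CPM in aging libraries and 1194, 1465 and 1354 CPM in control libraries. Its log2 fold change was -0.15 ± 0.10 (SE; edgeR adjusted p = 0.343), and the groups overlapped through control replicate 1.

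The RefSeq windows (build GRCm38.p6) of the 250 bases before the start of the 4 receptor tyrosine kinase genes are shown because these genes are expressed together at high level in these cells. Entries were found for 8 of the 10 genes. Capitals mark GGAA or its reverse complement TTCC, the core bound by ETS factors, the family that includes the endothelial regulators ERG and FLI1. The windows are chr5:75978456-75978705 for Kdr, chr5:147726012-147726261 for Flt1, chr4:94739039-94739288 for Tek and chr4:118489850-118490099 for Tie1; Tek is on the plus strand and the others on the minus strand.
Kdr: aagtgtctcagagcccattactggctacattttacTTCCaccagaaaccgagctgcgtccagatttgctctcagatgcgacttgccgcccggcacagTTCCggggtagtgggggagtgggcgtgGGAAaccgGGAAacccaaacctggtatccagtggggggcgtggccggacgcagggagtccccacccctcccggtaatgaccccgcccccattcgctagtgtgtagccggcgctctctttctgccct
Flt1: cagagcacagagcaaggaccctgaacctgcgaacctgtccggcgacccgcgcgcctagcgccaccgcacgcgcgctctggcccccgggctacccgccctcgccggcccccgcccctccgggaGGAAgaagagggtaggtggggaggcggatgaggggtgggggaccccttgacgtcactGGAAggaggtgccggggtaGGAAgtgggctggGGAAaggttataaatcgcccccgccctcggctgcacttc
Tek: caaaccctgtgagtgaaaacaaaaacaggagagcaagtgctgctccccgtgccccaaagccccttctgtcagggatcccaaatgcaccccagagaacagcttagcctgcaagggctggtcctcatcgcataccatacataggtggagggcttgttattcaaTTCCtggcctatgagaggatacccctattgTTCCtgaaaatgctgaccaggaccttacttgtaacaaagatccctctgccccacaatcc
Tie1: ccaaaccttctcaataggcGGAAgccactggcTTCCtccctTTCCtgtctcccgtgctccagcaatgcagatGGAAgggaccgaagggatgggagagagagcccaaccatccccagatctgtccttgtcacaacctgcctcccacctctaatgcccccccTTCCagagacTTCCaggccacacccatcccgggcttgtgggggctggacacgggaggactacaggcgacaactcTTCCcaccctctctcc

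The core occurred 4 times in the Kdr window, 4 times in the Flt1 window, 2 times in the Tek window and 7 times in the Tie1 window, counting both strands. Among 32851 promoter windows of the same length, 76.8% held it at least 2 times, 33.4% at least 4 times and 3.82% at least 7 times. The longer word GGAAG, which contains the core, occurred 6 times in the Tie1 window, a count reached by 0.344% of all windows. It occurred 3 times in the Flt1 window, 1 time in the Kdr window and 0 times in the Tek window. The box GGGCGG, the usual Sp1 word, was present in the Kdr and Flt1 windows, 2 and 3 times, and absent from the Tek and Tie1 windows; 32.7% of all windows held it. The word TATAAA was found in the Flt1 window only among these 4, and in 12.4% of all windows. These are matches of letters, not measured binding.

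Vegfa (ENSMUSG00000023951) encodes the principal ligand of VEGFR2. It had 43.6, 42.6 and 40.8 CPM in aging replicates 2, 3 and 5, against 52.4, 44.1 and 56.6 CPM in control replicates 1, 2 and 3. All 3 aging libraries were below all control libraries, although control replicate 2 was only 0.581 CPM above the highest of them. The log2 fold change was -0.27 ± 0.11 (SE; edgeR adjusted p = 0.128). Hepatocytes are the main known source of VEGF-A in liver, and of 12 hepatocyte markers 5 fell in the same libraries, which were Pck1, Tat, Fabp1, Ass1 and Cps1, where 5.59% of all genes tested fell. The count was 2 without control replicate 2. The abundant Alb, Apoa1 and Ttr had log2 fold changes of 0.03, 0.12 and -0.0037. No hepatocyte marker was at 0. Their sum was 668 to 775 CPM in aging libraries and 743 to 893 CPM in control libraries; their part in the Vegfa value was not tested.

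Vegfb (ENSMUSG00000024962) encodes a ligand of VEGFR1 linked to fatty acid uptake by endothelium. It ran in the opposite direction to Vegfa, with 15.3, 17.5 and 20.1 CPM in aging replicates 2, 3 and 5, against 13.7, 13.8 and 16.3 CPM in control replicates 1, 2 and 3. Aging replicate 2 lay below control replicate 3, so the groups overlapped (log2 fold change 0.27 ± 0.14, SE; edgeR adjusted p = 0.234). Pgf (ENSMUSG00000004791), placental growth factor, had 1, 0 and 2 counts in aging libraries and 0 counts in each control library. A count of 0 allows up to 3 counts, 0.169 to 0.189 CPM per library. Pgf was therefore not detectably expressed in either group at this depth, it was not tested, and no fold is given.

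**Figure D2:**
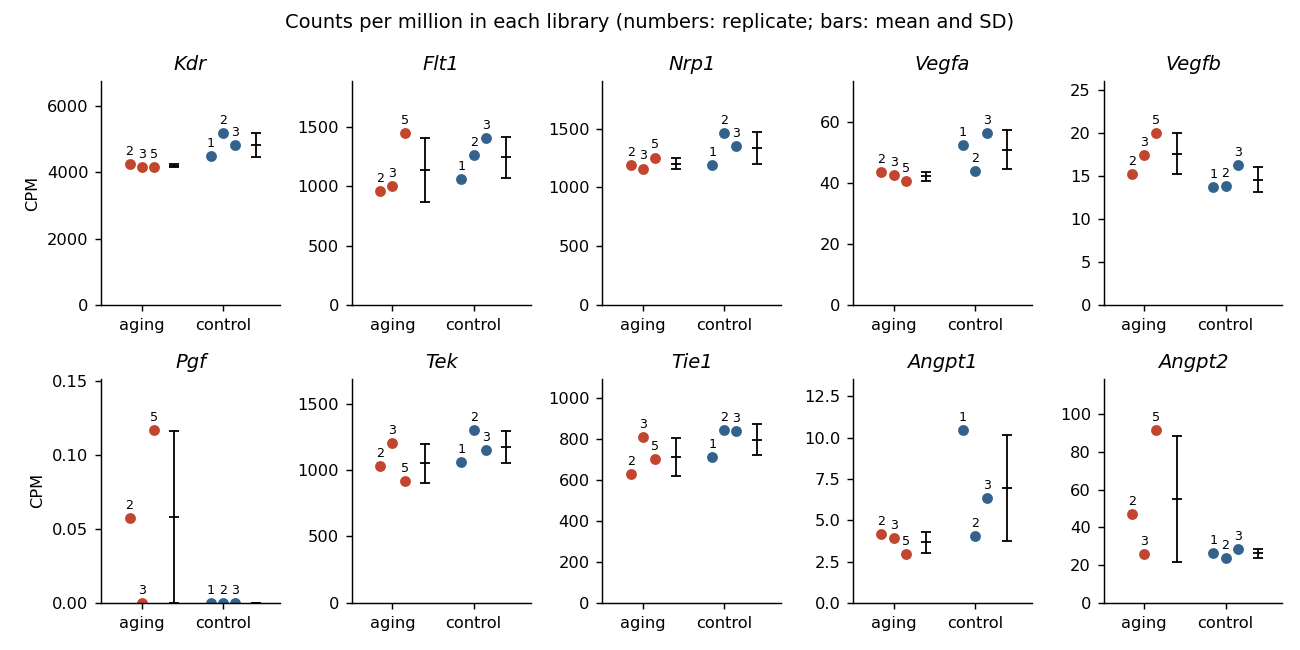
CPM of the 10 genes in each library, with aging libraries in red and control libraries in blue; digits are replicate numbers and the bars give mean and SD (n = 3 each). Kdr and Vegfa show no overlap between groups, and Angpt2 reaches 47.1 and 91.4 CPM in aging replicates 2 and 5 while aging replicate 3 lies at 26.0 CPM, among the control libraries.

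Tek (ENSMUSG00000006386) encodes TIE2, the angiopoietin receptor. It had 1029, 1204 and 915 CPM in aging replicates 2, 3 and 5, against 1058, 1297 and 1152 CPM in control replicates 1, 2 and 3, with a log2 fold change of -0.16 ± 0.13 (SE; 95% interval -0.46 to 0.14; edgeR adjusted p = 0.446). Tie1 (ENSMUSG00000033191) encodes the related receptor that binds no angiopoietin directly and modulates TIE2. It had 629, 811 and 702 CPM in aging libraries and 711, 843 and 842 CPM in control libraries, with a log2 fold change of -0.16 ± 0.12 (SE; 95% interval -0.45 to 0.12; edgeR adjusted p = 0.405). Both genes had their highest aging value in replicate 3, and the groups overlapped for both. The intervals span folds of 0.729 to 1.10 for Tek and 0.733 to 1.09 for Tie1. With 1 library left out the log2 fold change was -0.26 to -0.07 for Tek and -0.26 to -0.08 for Tie1, the lowest of both without aging replicate 3. With the neutrophil markers as a covariate it was -0.23 ± 0.31 for Tek and 0.17 ± 0.27 for Tie1 (SE; edgeR adjusted p = 0.772 and 0.804).

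Angpt2 (ENSMUSG00000031465), the endothelial angiopoietin, had the largest coefficient of variation within a group among the 9 tested genes, 60.9% in aging libraries, against 9.71% in control libraries. It had 47.1, 26.0 and 91.4 CPM in aging replicates 2, 3 and 5, against 26.2, 23.7 and 28.8 CPM in control replicates 1, 2 and 3. The control libraries spanned 5.09 CPM, whereas aging replicate 5 stood at 3.51 times aging replicate 3, which fell between control libraries. The log2 fold change was 1.06 ± 0.42 (SE; 95% interval 0.06 to 2.07) and did not pass (edgeR adjusted p = 0.143). The same gene passed in DESeq2 (log2 fold change 1.07, adjusted p = 0.0255), where the other 8 genes did not. The neutrophil marker sum in aging replicates 2, 3 and 5 was 4780, 2137 and 1782 CPM, and with these markers as a covariate the Angpt2 log2 fold change was 1.89 ± 0.89 (SE; edgeR adjusted p = 0.401). Without aging replicate 5 the log2 fold change was 0.48, and without aging replicate 3 it was 1.40 and passed (edgeR adjusted p = 0.0469). The authors' deposited table gives Angpt2 a log2 fold change of 1.63 with an FDR of 0.000806, the only gene of the 10 with an FDR under 0.05 there. Of all 22298 genes listed, including those not tested here, 14.3% have an FDR under 0.05. The group values of Angpt2 in the authors' deposited table are 21.9 for aging and 7.11 for control, whereas its 3 deposited FPKM values in each group average 15.1 and 7.46. Whether the authors' comparison rests on these libraries alone is therefore not known, and its FDR cannot be compared directly with the edgeR value.

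Angpt1 (ENSMUSG00000022309), the activating ligand of TIE2, was low in all libraries, with 72, 66 and 51 counts in aging replicates 2, 3 and 5, against 175, 72 and 101 counts in control replicates 1, 2 and 3. On the CPM scale these were 4.14, 3.90 and 2.97 in aging libraries and 10.4, 4.05 and 6.36 in control libraries. Control replicate 1 stood highest, and control replicate 2 lay within the aging range. The log2 fold change was -0.92 ± 0.35 (SE; edgeR adjusted p = 0.122), and without control replicate 1 it was -0.49 (edgeR adjusted p = 0.325). Stellate cells, the pericytes of the sinusoid, are perivascular. Of 11 stellate cell and fibroblast markers tested 4 fell (Reln, Rgs5, Dcn and Lrat), where 5.59% of all genes tested fell. Without control replicate 1 or 2 the count was 2. Neither Acta2 nor Col1a1 passed, and their log2 fold changes were positive, at 0.90 ± 0.46 and 0.18 ± 0.61 (SE). The sum of all 12 was 179 to 219 CPM in aging libraries and 244 to 259 CPM in control libraries, with none at 0. Most of it came from Hgf and Ecm1, with means of 88.3 and 79.9 CPM in aging libraries and 91.4 and 91.5 CPM in control libraries. Neither passed, and Hgf is also counted among the angiocrine factors below, so the sum is not a level of stellate cells alone. The part of these markers in the Angpt1 value was not tested. Platelets also carry angiopoietin-1, and their 9 markers summed to 12.2 to 14.5 CPM in aging libraries and 12.3 to 14.4 CPM in control libraries, and none of the 4 tested passed.

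**Figure D3:**
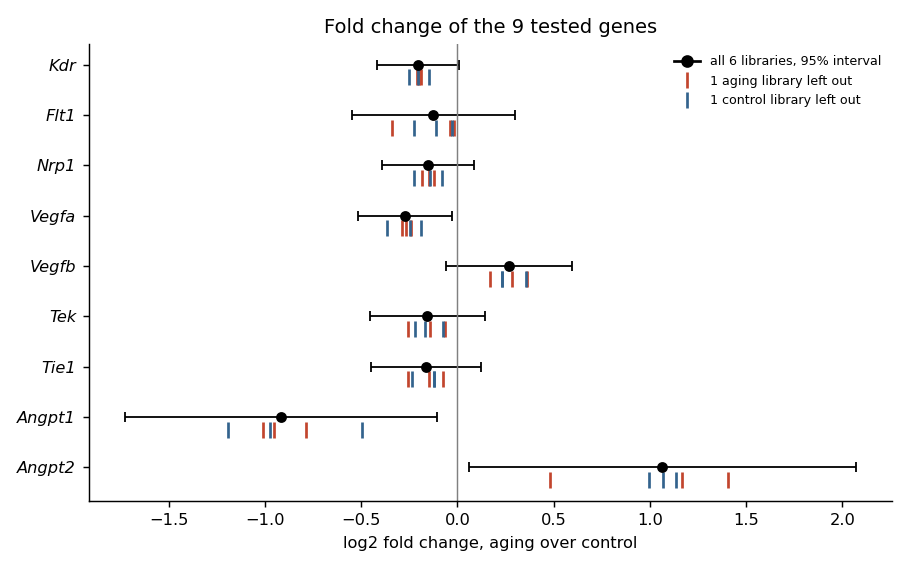
Log2 fold change of aging over control libraries from edgeR for the 9 tested genes, with the 95% interval over all 6 libraries (black) and the value when 1 aging (red) or 1 control library (blue) is left out. The Angpt2 value moves between 0.48 and 1.40 and the Angpt1 value between -1.19 and -0.49, while Kdr stays between -0.25 and -0.15.

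Ratios within a library need no scaling between libraries, and 4 were compared. The ratio of Angpt2 to Angpt1 counts was 11.4, 6.67 and 30.8 in aging replicates 2, 3 and 5, against 2.51, 5.85 and 4.52 in control replicates 1, 2 and 3. Every aging library exceeded every control library, and the mean log2 ratio was 3.73 ± 1.12 in aging libraries and 2.02 ± 0.62 in control libraries (SD, n = 3 each). The difference of 1.71 had a two-sided exact permutation p of 0.1, the smallest that 3 against 3 allows, and 0.2 after adjustment over the 4 ratios. Without aging replicate 5 the difference was 1.10. The ratio of Vegfb to Vegfa was 0.351, 0.411 and 0.492 in aging libraries and 0.261, 0.313 and 0.288 in control libraries, also without overlap (log2 difference 0.53, exact permutation p = 0.1, adjusted 0.2). The receptor ratios overlapped between groups: the log2 ratio of Tek to Tie1 was 0.55 ± 0.16 in aging libraries and 0.55 ± 0.09 in control libraries, and that of Flt1 to Kdr was -1.91 ± 0.33 and -1.97 ± 0.16 (SD; exact permutation p = 1 and 0.9, adjusted p = 1 for both). Within the aging libraries, replicate 5 had the highest ratio of Flt1 to Kdr, of Angpt2 to Angpt1 and of Vegfb to Vegfa, and the lowest of Tek to Tie1.

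**Figure D4:**
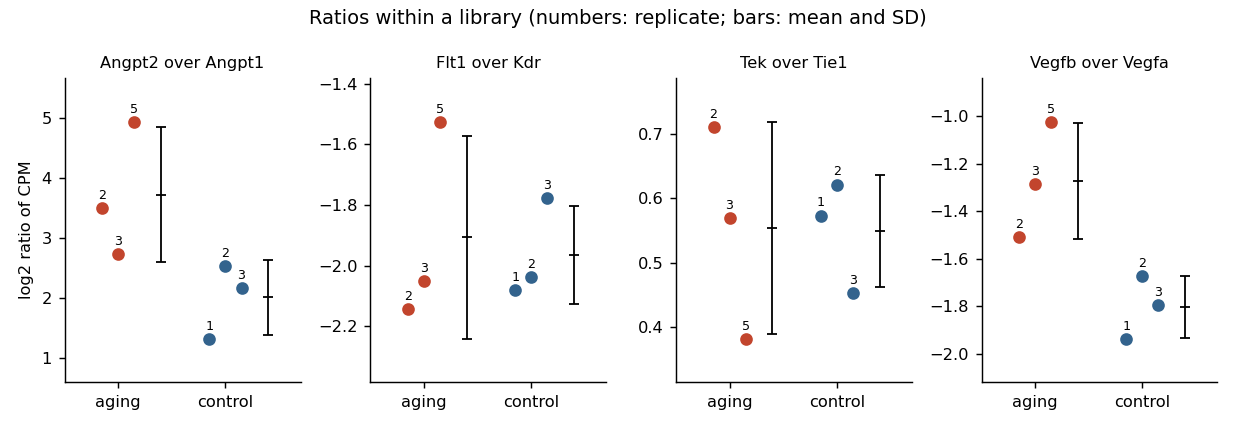
Log2 ratio of CPM of 4 gene pairs within each library, aging in red and control in blue, with replicate numbers and the mean and SD (n = 3 each); each panel has its own vertical axis, which does not start at 0. The ratios of Angpt2 to Angpt1 and of Vegfb to Vegfa do not overlap between groups, and those of Flt1 to Kdr and Tek to Tie1 do.

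The genes around these receptors were counted in 8 lists of 88 genes, of which 84 were tested. Of the 84, 6 rose and 4 fell, 11.9% of them, close to the background of 7.22% higher and 5.59% lower among all genes tested, and their median log2 fold change was -0.07 against -0.01 over all genes. None of the other VEGF family genes passed. Vegfc, the lymphatic ligand of VEGFR3, had 9.09, 10.3 and 16.8 CPM in aging libraries and 20.6, 16.3 and 18.6 CPM in control libraries (log2 fold change -0.62 ± 0.24, SE; edgeR adjusted p = 0.124), and its receptor gene Flt4 had a log2 fold change of -0.18 ± 0.15. Without aging replicate 5 Vegfc passed as lower (edgeR adjusted p = 0.0110). Vegfd had too few counts to be tested.

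Among 25 VEGF receptor signalling genes 2 rose and 1 fell, with a median log2 fold change of -0.01. Hspb1, the small heat-shock protein phosphorylated downstream of p38, rose to 56.6, 84.4 and 103 CPM in aging libraries, against 24.6, 19.4 and 25.5 CPM in control libraries (log2 fold change 1.81 ± 0.23, SE; edgeR adjusted p = 0.00819). Nck1, an adaptor recruited to VEGFR2, rose with a log2 fold change of 0.58 ± 0.09, and Ptk2, focal adhesion kinase, fell with one of -0.38 ± 0.10 (SE; edgeR adjusted p = 0.0100 and 0.0445). Nck1 missed the threshold without control replicate 2, and Ptk2 without any library except aging replicate 3 (edgeR adjusted p up to 0.162). Of 7 tested Tie signalling genes none passed. Foxo1, the transcription factor restrained by TIE2 signalling through AKT and known to induce Angpt2, came nearest, with 132, 108 and 101 CPM in aging libraries and 154, 167 and 142 CPM in control libraries (log2 fold change -0.44 ± 0.12, SE; edgeR adjusted p = 0.0503). Without aging replicate 2 Foxo1 passed as lower (edgeR adjusted p = 0.0205) and 1 gene of this list passed as higher. Ptprb, the phosphatase that dephosphorylates TIE2, had a log2 fold change of -0.12 ± 0.12 (SE). Tnip2, which binds TIE2, had one of 0.17 ± 0.09 (SE).

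Of 10 neuropilin partners 1 rose: Sema3d, a secreted class 3 semaphorin, had 123, 239 and 119 CPM in aging libraries and 72.9, 81.5 and 71.1 CPM in control libraries (log2 fold change 1.09 ± 0.28, SE; edgeR adjusted p = 0.0487). Leaving out any 1 of the 3 control libraries ended this call (edgeR adjusted p up to 0.145). The 12 tested VEGF-induced and tip cell genes had 2 that rose, 1 that fell and a median log2 fold change of 0.63. Of the 12, 7 had a positive and 5 a negative value, and the list was not tested as a set. Dll4, the Notch ligand induced by VEGF, had a log2 fold change of 0.90 ± 0.13, Plaur, the urokinase receptor, one of 1.45 ± 0.22, and Nid2, a basement membrane nidogen, one of -1.34 ± 0.18 (SE; edgeR adjusted p = 0.00959, 0.0127 and 0.00713). Dll4 and Plaur missed the threshold without control replicate 2 (edgeR adjusted p = 0.0534 and 0.0523). Plaur is also a gene of neutrophils, whose markers rose in the same libraries, and their part in the Plaur value was not tested. With these markers as a covariate 20 genes over the whole table passed instead of 1678, and Hspb1 was the only pathway list gene among them. Neutrophil marker sums did not overlap between groups, so that fit can hardly tell group from covariate. Plaur, Dll4 and Nid2 did not pass in it. Log2 fold changes were then 0.90 ± 0.44 for Plaur, 1.15 ± 0.30 for Dll4 and -1.69 ± 0.41 for Nid2 (SE; edgeR adjusted p = 0.411, 0.247 and 0.209). Esm1, the tip cell proteoglycan endocan, named here after its values were seen, had 95.4, 29.4 and 169 CPM in aging replicates 2, 3 and 5, against 23.0, 17.0 and 24.0 CPM in control replicates 1, 2 and 3. Its order over the aging libraries was that of Angpt2, replicate 5 above 2 above 3. How many other genes share this order was not counted, so it does not link the 2 genes. Esm1 did not pass (log2 fold change 2.20 ± 0.58, SE; edgeR adjusted p = 0.0549). Kcne3, a potassium channel subunit enriched in tip cells and also named after its values were seen, stood out in aging replicate 5 alone, with 9.78, 8.80 and 96.1 CPM in aging replicates 2, 3 and 5, against 6.14, 5.40 and 5.10 CPM in control replicates 1, 2 and 3 (edgeR adjusted p = 0.114).

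Of 8 angiocrine factors, secreted or induced by endothelium downstream of VEGFR2 or acting on hepatocytes, Kitl, the KIT ligand, fell to 144, 132 and 136 CPM in aging libraries, against 179, 202 and 251 CPM in control libraries (log2 fold change -0.62 ± 0.13, SE; edgeR adjusted p = 0.0238). This call ended when aging replicate 3, control replicate 2 or control replicate 3 was left out (edgeR adjusted p up to 0.0812). Wnt2, a Wnt ligand known in regenerating mouse liver as an endothelial product downstream of VEGFR2, had 167, 231 and 172 CPM in aging libraries and 252, 270 and 247 CPM in control libraries. Its groups did not overlap, and it did not pass (log2 fold change -0.43 ± 0.13, SE; edgeR adjusted p = 0.0703). The other 6, which include Id1 and Hgf of the same pathway, did not pass and had log2 fold changes of -0.48 to 0.25. Without aging replicate 3 the Wnt pathway ligands Wnt2 and Wnt9b and the Wnt enhancer Rspo3 passed as lower (edgeR adjusted p = 0.0247, 0.0224 and 0.0373), and without aging replicate 5 Bmp2, a regulator of hepatocyte iron sensing, passed as higher (edgeR adjusted p = 0.0310). Of 14 oxygen-sensing genes, which include the regulators of Vegfa transcription, Slc2a1, the glucose transporter GLUT1, rose with a log2 fold change of 1.94 ± 0.25 and Egln3, a prolyl hydroxylase induced by hypoxia, fell with one of -1.49 ± 0.21 (SE; edgeR adjusted p = 0.00899 and 0.00897). Slc2a1 missed the threshold without control replicate 2 (edgeR adjusted p = 0.0523). It had 111, 61.6 and 65.5 CPM in aging replicates 2, 3 and 5, against 23.8, 19.7 and 18.3 CPM in control replicates 1, 2 and 3. In the fit with the neutrophil markers as a covariate, which called 20 genes over the whole table, neither Slc2a1 nor Egln3 passed. Their log2 fold changes were 0.83 ± 0.31 and -1.07 ± 0.47 there (SE; edgeR adjusted p = 0.322 and 0.366). The part of neutrophils in these values was not tested. Epas1, which encodes HIF-2 alpha, had 1130 ± 46.9 CPM in aging libraries and 1271 ± 97.0 CPM in control libraries (SD, n = 3 each) and did not pass. None of 5 angiopoietin-like genes, which do not bind TIE2, passed; their median log2 fold change was -0.94 at levels of at most 4.28 CPM, with Angptl7 at -2.04 ± 0.61 and Angptl6 at -1.17 ± 0.39 (SE). Angptl7 had 0.460, 0.118 and 0.116 CPM in aging replicates 2, 3 and 5. In replicates 3 and 5 this is under the floor of 3 counts (0.177 and 0.174 CPM), so its fold is poorly determined. Angptl6 averaged 0.349 CPM in aging libraries and 0.798 CPM in control libraries.

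**Figure D5:**
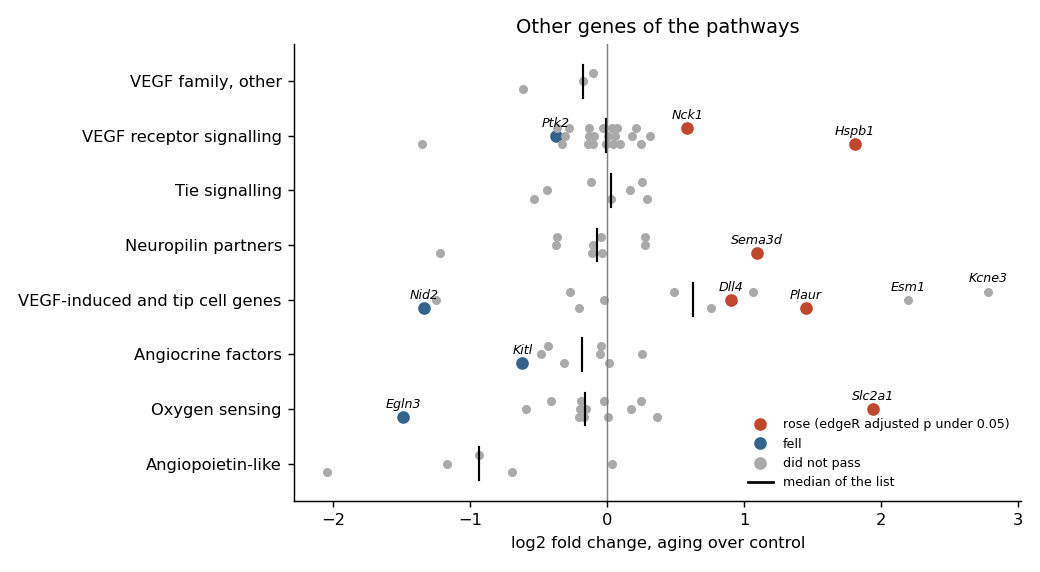
Log2 fold change of aging over control libraries for 84 tested genes in 8 pathway lists, with genes that rose in red, genes that fell in blue, genes that did not pass in grey and list medians as black bars; Esm1 and Kcne3 are labelled although they did not pass. Most receptor signalling genes lie near 0, and the VEGF-induced and tip cell list spreads from Nid2 at -1.34 to Kcne3 at 2.78.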

How the data were processed

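Libraries were poly(A)-selected, per the labels' protocols. The submitters' processing notes name RSEM, HISAT2, Bowtie2, StringTie 1.3.1 and fastp 0.18.0 without roles. Neither genome build nor annotation nor strandedness is stated there. Per the file headers the deposited table holds a count and an FPKM for each library, and from the authors' own comparison a log2 fold change, a p-value and an FDR. It also holds the authors' group values, headed as means but not plain means of the FPKM columns, and treated here as a score. Counts are whole numbers; whether the authors rounded estimates is not stated.

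The main test was a robust quasi-likelihood fit on group (edgeR 4.0.16, R 4.3.3), after filterByExpr (minimum count 10, total 15) and TMM scaling, with Benjamini-Hochberg adjustment over 13096 genes; the procedure was tested on simulated data. CPM use TMM-scaled totals. SE is the absolute log2 fold change over the square root of F, and intervals are 95%. The floor of 3 counts covers counting error only. DESeq2 1.42.0, limma 3.58.1 (voom), other scalings, filters, a replicate block, a neutrophil-marker covariate and leaving out each library were alternatives. Ratios were tested by exact permutation; Pgf over Vegfa was not formed because Pgf had 0 counts. No 2 libraries of a group agreed within counting noise (chi-square over degrees of freedom of 8.40 to 54.5).

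Genes named are the 10 members, list genes past the threshold (up to 6 a list, otherwise the 2 smallest p), and the 3 most like Kdr; Esm1, Kcne3, Ptprb, Wnt2, Wnt9b, Rspo3, Bmp2, Id1, Hgf, Epas1 and the marker genes were named in addition, after their values were seen. 1 list gene is not reported here. Members and lists were chosen with earlier results of these data known.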

Additional observations from a re-analysis of the deposited data

How the results depend on the processing

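Kdr, Nrp1, Vegfa, Vegfb, Tek and Angpt1 kept their direction and did not pass in any of 16 alternatives each. Angpt2 passed with DESeq2 (1.07 on the log2 scale) and without aging replicate 3, and ranged from 0.48 to 1.40 when 1 library was left out. In the fit with the replicate block, aging replicate 5 and control replicate 1 have no same-numbered library. Its group difference therefore rests on replicates 2 and 3 of each group alone. With the replicate block and with the neutrophil covariate, neither past the threshold, the log2 fold change was 0.43 and 1.89 for Angpt2, -0.34 and -1.48 for Angpt1, and 0.12 and 0.83 for Vegfb. With the neutrophil markers as a covariate, Flt1 and Tie1 reversed to log2 fold changes of 0.59 and 0.17, neither past the threshold. Neutrophil marker sums did not overlap between groups, so this fit can hardly tell group from covariate. The SE of Kdr was 0.23 in it instead of 0.09. The count of changed genes over the table was 20 with it instead of 1678, and the cause was not tested. Without 1 library that count ranged from 268 to 2121, and it was 664, 268 and 458 without control replicate 1, 2 and 3 and 860 without aging replicate 3. The 10 calls among pathway genes became 17 with DESeq2, 17 with the replicate block, 1 with the neutrophil covariate and 3 to 13 with 1 library left out, the lowest without control replicate 2. Replicate numbers 2 and 3 occur in both groups, but same-numbered libraries did not deviate together (correlation -0.06 and -0.04), so the numbers were not taken as pairing. With the replicate block Flt1 had a log2 fold change of -0.44 and passed (edgeR adjusted p = 0.0330). That value leaves out aging replicate 5, the library with the highest Flt1, and is not an adjusted comparison of all 6 libraries. The 4 ratio differences moved by less than 1 SD in 8 alternatives each; those of Flt1 to Kdr and of Tek to Tie1, near 0, took either sign when 1 library was left out, and that of Angpt2 to Angpt1 was 1.10 to 2.21. Upper-quartile scaling split the calls over the table into 823 higher and 969 lower, beside 946 and 732 with TMM, with every gene of the set tested keeping its direction. Angpt1, at 51 to 175 counts per library, and Pgf are limited by depth.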
